A study of Homo sapiens with 6 samples.

Results

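The urokinase and plasminogen system was examined as 9 genes, PLAU, PLAT, PLAUR, PLG, SERPINE2, SERPINF2, SERPINB2, HPN and ST14, out of 18674 genes that could be measured on the array. The genes were chosen by name, since amiloride is a known inhibitor of the urokinase protein. No measured value served as the rule, but earlier results of these data were known at the time. They were read by 175 probe sets out of 1408285, each taken as the gene's own where the array annotation gave it that gene symbol and no other. RNA came from Huh-7 cells, an established line of human hepatocellular carcinoma. Cultures kept in 0.5 mM amiloride for 24 hours were compared with un-treated cultures of the same age, with 3 biological replicates and 3 exon arrays per group. Amiloride was taken from a stock in DMSO, and the labels do not say whether the un-treated cultures received DMSO. All 6 arrays thus come from 1 cell line, 1 dose and 1 time.

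Plasminogen circulates as an inactive precursor made by the liver. Urokinase and tissue plasminogen activator cut it to plasmin, a protease that dissolves fibrin and degrades extracellular matrix, and the urokinase receptor holds urokinase at the cell surface. Inhibitors of the serpin family trap the activators or plasmin, and membrane-bound proteases such as hepsin and matriptase can activate the urokinase precursor. In tumours the system is known for its part in invasion, and hepatocytes are the main source of plasminogen and of antiplasmin in blood. Amiloride blocks the catalytic site of urokinase, so the array asks a different question, whether RNA of the system changed as well. Neither the activity nor the amount of any protein was measured on these arrays.

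Array brightness has to be given before the genes. The median intensity of an array lay between 4.71 and 13.1 and was highest on replicate 1 of both groups, and gene levels of untreated replicate 1 correlated with those of the other arrays at no more than 0.842 (Pearson's r over gene levels, a description with no test), against a highest value of 0.932 to 0.964 for each of the other arrays. A gene's level was the median over its probe sets of the log2 intensity, with intensities under 1 set to 1, and each level is given as deposited and, where it matters, after each array was centred on the median of all its probe sets. Of the hepatocyte markers measured, 11 of 11 lay above the upper quartile of all gene levels, as did 0 of 5 endothelial, 0 of 6 fibroblast or stellate cell and 1 of 5 leukocyte markers, the last being lysozyme (LYZ). Only 12 of the 1050 values of the 9 genes lay at the floor of 1.

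None of the 9 genes passed the test between amiloride-treated and untreated cells (limma, adjusted p = 1 for each as deposited). In all, 0.0321% of genes were called higher (6 of 18674) and 0% lower. At an unadjusted p under 0.05, 0 of the 9 genes passed, against 1.99% of all genes higher and 0.112% lower. The difference between the group means was smaller than the SD of either group in 9 of 9 genes. As deposited, 4 genes had a log2 fold change above 0 and 5 below it, where 53.8% of all genes lay above and 46.2% below. The range was -0.32 for PLAU to 0.53 for SERPINF2, and the median was -0.04, against 0.04 over all genes. limma gave every gene 1 shared standard error of 0.66, which includes the brightness of the arrays. A gene that does not pass is therefore not shown to be unchanged, and the 95% intervals below say which changes the data leave possible. With the replicate number as a block, the median standard error was 0.27. The smallest adjusted p of the 9 genes was then 0.383 (limma). The intervals below come from the fit without that block. With 3 arrays in each group, the smallest p that an exact permutation test could give is 0.1, so none was run.

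**Figure D1:**
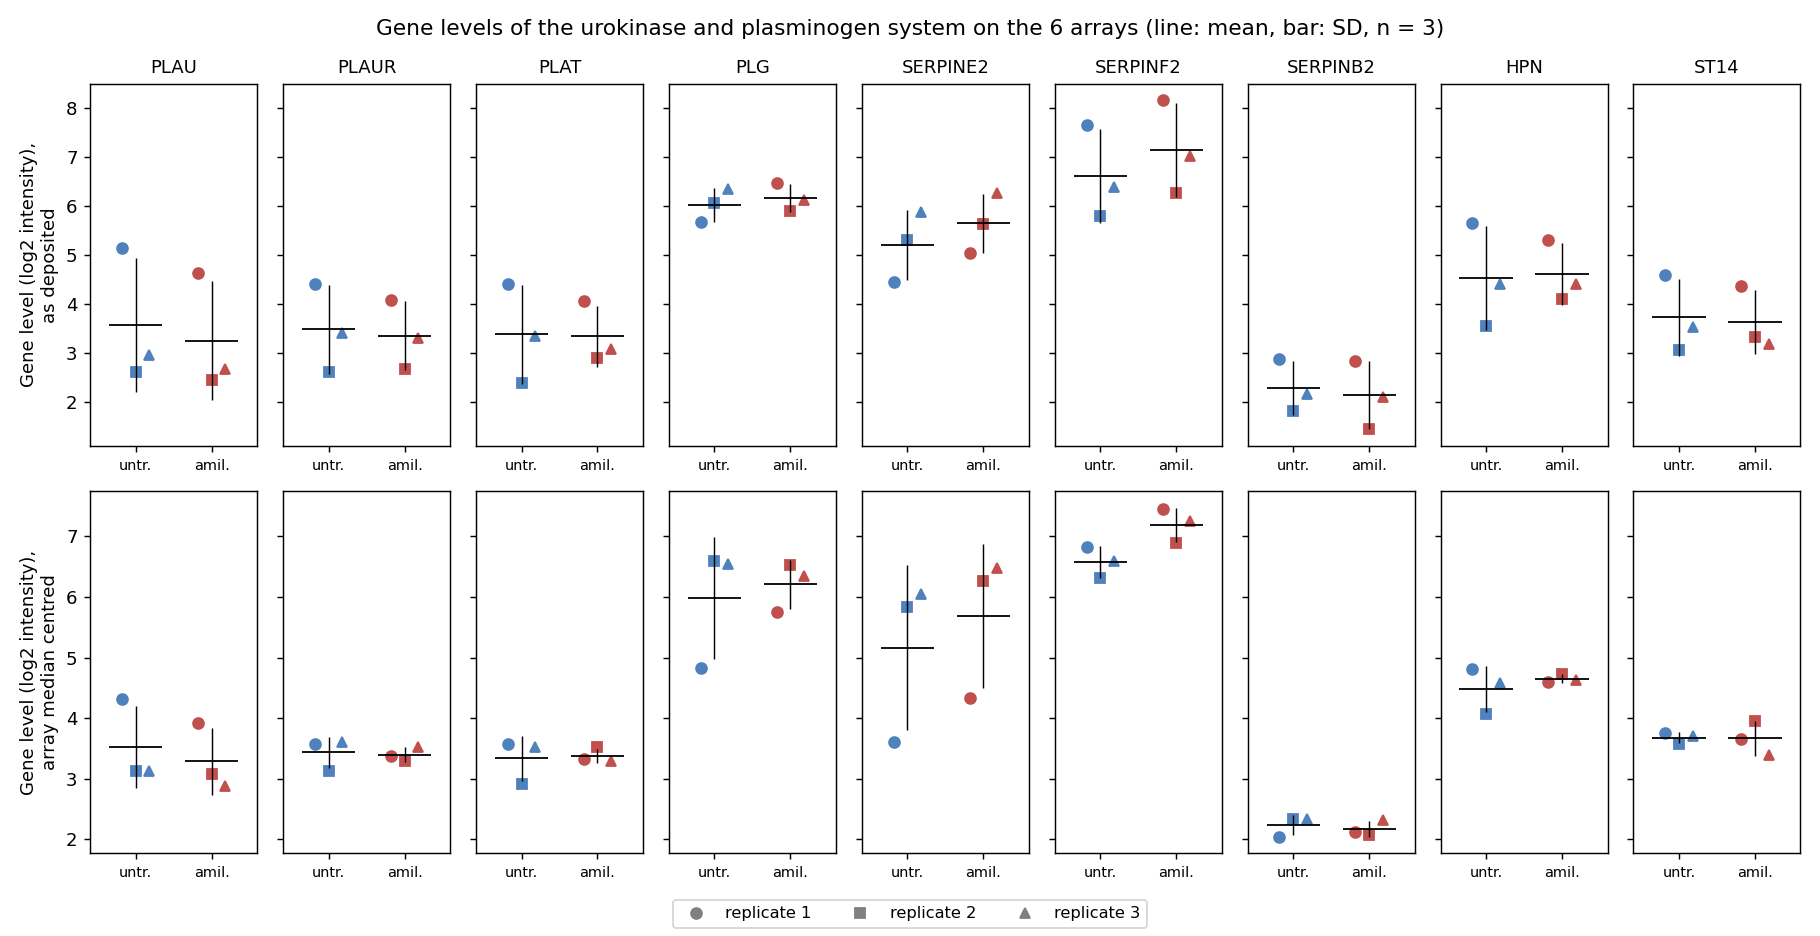
Gene level of each gene (log2 intensity, vertical axis) on the 3 untreated and 3 amiloride arrays, as deposited in the upper row and centred on each array's median in the lower row; symbols mark the replicate number, lines the mean and bars the SD. As deposited the groups overlapped in every gene, and after centring the groups of SERPINF2 lay apart.

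Of the plasminogen activators, PLAU encodes urokinase itself. Its level was 4.64, 2.44 and 2.66 on amiloride replicates 1, 2 and 3 and 5.15, 2.61 and 2.95 on the untreated ones. Replicate 1 was the brightest in both groups by far, and the groups overlapped. The log2 fold change of -0.32 (standard error 0.66) corresponds to 0.801-fold, with an interval from 0.327-fold to 1.96-fold. After centring, replicate 1 still stood above the others, at 3.92 against 3.08 and 2.88 in amiloride and at 4.31 against 3.13 and 3.13 in untreated cells. The log2 fold change was then -0.23 (standard error 0.4, adjusted p = 0.893 from limma), with an interval of 0.454-fold to 1.6-fold. It was 0.16 without untreated replicate 1, so that even its sign rested on that array. Of the 13 PLAU probe sets that passed the filter on dim ones (kept were those whose log2 values averaged 2.8 or more, which is where the middle of the whole array lay), 10 were below 0 and 3 above. Probe sets of 1 gene share its transcript and are not independent. Over all 137 kept probe sets of the 9 genes, 72 were above 0 and 65 below, against 48.3% and 51.7% of all kept probe sets, and after centring 88 were above and 49 below, against 55.4% and 44.6%.

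PLAT encodes tissue plasminogen activator, which acts mainly on fibrin clots. It stood at 4.05, 2.89 and 3.08 in amiloride and at 4.41, 2.39 and 3.34 in untreated cells, a log2 fold change of -0.04 (0.971-fold, interval 0.397 to 2.38). The untreated arrays spanned more than the amiloride arrays and enclosed them. After centring the difference was 0.05 (standard error 0.27, adjusted p = 0.975 from limma), so a change beyond 0.677-fold or 1.57-fold lay outside its interval. As deposited, the mean level of PLAT was 3.34 in amiloride and 3.38 in untreated cells. In that order it was 3.25 and 3.57 for PLAU, 3.35 and 3.48 for PLAUR, and 3.62 and 3.72 for ST14. The endothelial marker VWF stood at 3.31 and 3.35 and the fibroblast or stellate marker PDGFRB at 3.92 and 3.68. Other markers of those cell types ran from 1.46 and 1.85 (DCN) to 4.1 and 4.22 (COL1A1). Of these, PECAM1, KDR, TEK, LUM and DCN lay below PLAT, PLAU, PLAUR and ST14 in both groups. Whether such signal is RNA of these genes was not tested, so a narrow interval does not show their RNA unchanged.

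PLAUR encodes the receptor that anchors urokinase to the membrane. Its level was 4.08, 2.66 and 3.31 in amiloride and 4.41, 2.61 and 3.41 in untreated cells. Same-numbered arrays thus lay within 0.33 of each other while replicates of a group were up to 1.8 apart. The fold change was 0.915 as deposited (interval 0.374 to 2.24) and 0.973 after centring (interval 0.657 to 1.44, adjusted p = 0.978 from limma). Of 11 PLAUR probe sets past the filter, 4 were above 0 as deposited and 8 after centring.

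PLG encodes plasminogen, the substrate of both activators. Its 24 probe sets gave a level of 6.48, 5.9 and 6.13 in amiloride and 5.67, 6.07 and 6.36 in untreated cells, a log2 fold change of 0.14 (1.1-fold, interval 0.449 to 2.69). Untreated replicate 1 was the lowest of the 6 arrays although it was the brightest array, and after centring it stood at 4.83 where the other 5 lay between 5.76 and 6.59. The centred difference of 0.23 (standard error 0.47, adjusted p = 0.918 from limma) became -0.35 without that array. A further 19 probe sets carry PLG together with other symbols, in 17 of them those of plasminogen-like genes, near copies of a part of plasminogen. Their median level was 4.93, 4.2 and 4.13 in amiloride and 2.74, 4.72 and 4.03 in untreated cells, again lowest on untreated replicate 1. Counting them to PLG gave a log2 fold change of 0.05, a reading chosen after the data were seen.

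Of the inhibitors, SERPINF2 and SERPINE2 had the highest log2 fold changes of the 9 genes and SERPINB2 a value nearer 0. SERPINF2 encodes alpha-2-antiplasmin, the main inhibitor of free plasmin and a protein secreted by the liver. Its level was 8.17, 6.26 and 7.03 in amiloride and 7.67, 5.79 and 6.4 in untreated cells, a log2 fold change of 0.53 (standard error 0.66), or 1.44-fold with an interval of 0.589 to 3.53. As deposited the groups overlapped, with replicate 1 the highest and replicate 2 the lowest of both.

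After centring, SERPINF2 stood at 7.45, 6.89 and 7.25 in amiloride and at 6.83, 6.31 and 6.59 in untreated cells, and the lowest amiloride array lay above the highest untreated one. The mean was 7.2 ± 0.28 (SD, n = 3) against 6.58 ± 0.26, a log2 fold change of 0.62 (standard error 0.27, 1.53-fold, interval 1.01 to 2.33). It missed the threshold in limma across all genes (adjusted p = 0.341), where 0.0107% of genes were called higher and 0% lower. Before adjustment its limma p of 0.0469 was the only one under 0.05 among these genes. On the same scale 13.3% of all genes were higher and 0.948% lower at an unadjusted p under 0.05. Without overlap between the groups 16.5% were higher and 2.89% lower, so 1 gene of 9 is near what all genes gave. As deposited, 19.3% of all genes had a larger log2 fold change than SERPINF2. Its sign held when any 1 array was left out, between 0.02 and 1.05 as deposited and between 0.49 and 0.77 after centring. The groups also lay apart after quantile normalization (log2 fold change 0.57, adjusted p = 0.398 from limma).

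Most probe sets of SERPINF2 gave a difference of this sign. All 14 SERPINF2 probe sets passed the filter, and 12 of them were above 0. After centring, 4 were higher without overlap between the groups and 0 lower, against 9.07% of all probe sets higher and 3.46% lower. Over the 9 genes 6 of 137 were higher in this way and 0 lower. The largest, probe set 3705957, stood at 8.13, 7.91 and 7.89 in amiloride and at 6.85, 7.05 and 6.89 in untreated cells. Its centred log2 fold change of 1.04 had an adjusted p = 0.823 (limma across 704143 probe sets), and it was the 1 probe set of the 9 genes that was higher at an unadjusted p under 0.05, against 4.84% of all, while 0 were lower against 1.09%.

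**Figure D2:**
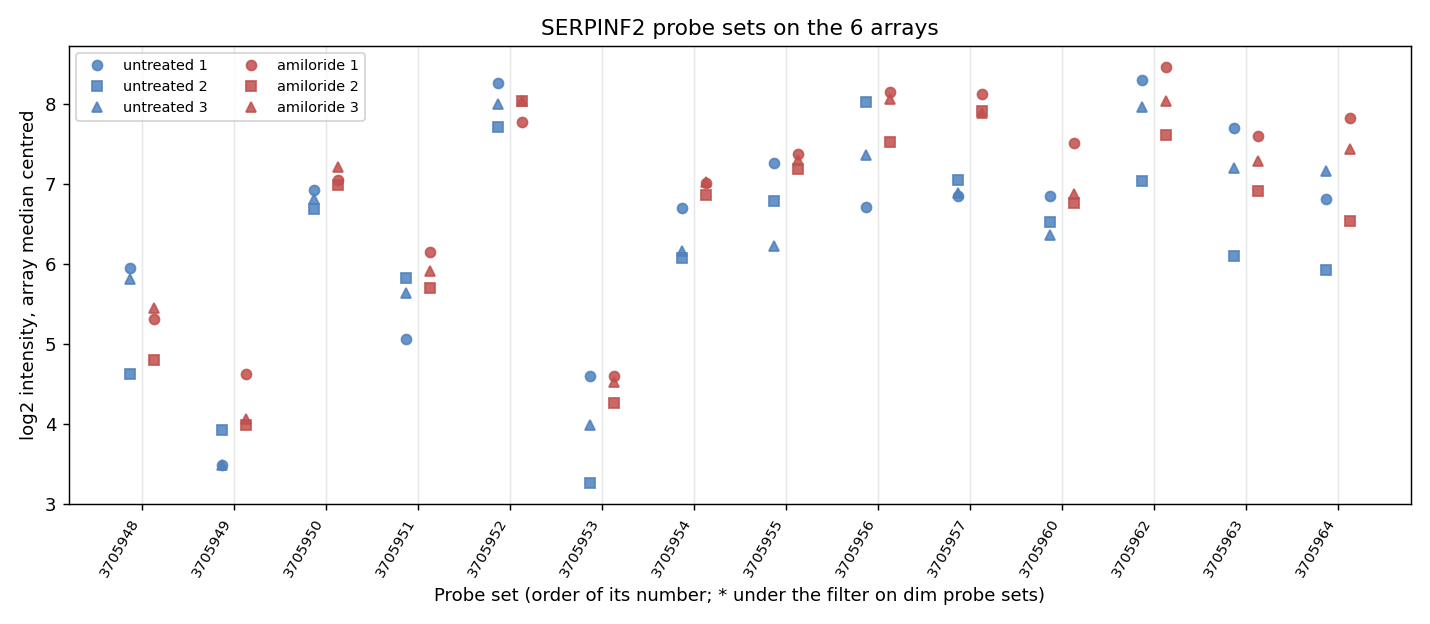
log2 intensity centred on each array's median (vertical axis) of the 14 SERPINF2 probe sets (horizontal axis, by number), red for amiloride and blue for untreated arrays, symbols by replicate. In probe sets 3705949, 3705950, 3705954 and 3705957 all 3 amiloride arrays lay above all untreated ones.

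SERPINE2 encodes protease nexin-1, an inhibitor of urokinase, tissue plasminogen activator, plasmin and thrombin that sits on cell surfaces and matrix. Its level was 5.05, 5.63 and 6.26 in amiloride and 4.44, 5.31 and 5.87 in untreated cells. Replicate 1 was the lowest in both groups although its arrays were the brightest, and the groups overlapped. The log2 fold change was 0.44 as deposited (1.35-fold, interval 0.553 to 3.32) and 0.53 after centring (standard error 0.72, adjusted p = 0.85 from limma). After centring, replicate 1 lay at 4.33 in amiloride and 3.6 in untreated cells, where the other 4 arrays were between 5.84 and 6.48. Without untreated replicate 1 the centred value was -0.26, so its direction rested on that array.

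SERPINB2 encodes plasminogen activator inhibitor 2, found mostly inside cells such as keratinocytes and macrophages. It stood at 2.84, 1.44 and 2.1 in amiloride and at 2.88, 1.81 and 2.15 in untreated cells, and 11 of its 14 probe sets lay under the filter on dim probe sets. The log2 fold change was -0.15 (0.898-fold, interval 0.367 to 2.2), and 0.12 over the 3 probe sets that passed the filter, so it had no settled sign. Intensities this close to the floor say little about the RNA in either direction.

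For both membrane proteases the difference was smaller than its standard error. HPN encodes hepsin, which is abundant in liver and processes growth factors and pro-urokinase, and it gave 5.31, 4.1 and 4.41 in amiloride and 5.65, 3.55 and 4.4 in untreated cells. The log2 fold change of 0.08 (interval 0.431-fold to 2.58-fold) was 0.17 after centring (standard error 0.27, interval 0.735-fold to 1.71-fold, adjusted p = 0.884 from limma). With the mean in place of the median over its probe sets it was -0.11. ST14 encodes matriptase, an epithelial activator of pro-urokinase and of the hepatocyte growth factor precursor. Its arrays read 4.37, 3.33 and 3.17 in amiloride and 4.6, 3.05 and 3.52 in untreated cells, with the amiloride arrays inside the range of the untreated ones. After centring its log2 fold change was -0.01 (standard error 0.25, interval 0.667-fold to 1.48-fold, adjusted p = 0.995 from limma).

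Replicates of a group thus differed by more than the groups did. In 7 of the 9 genes the level was highest on replicate 1 of both groups, and PLG and SERPINE2 were the exceptions. After centring, the difference between groups was smaller than the SD of the untreated arrays in 8 of 9 genes, with SERPINF2 as the exception. It was smaller than the SD of either group in 7 of 9. There HPN was also an exception, at 0.17 against an SD of 0.07 in amiloride and 0.38 in untreated cells. The centred values ran from -0.23 to 0.62 with a median of 0.05, against 0.13 over all genes, and 5 of the 9 lay above 0 and 4 below, against 63.5% and 36.5% of all genes.

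**Figure D3:**
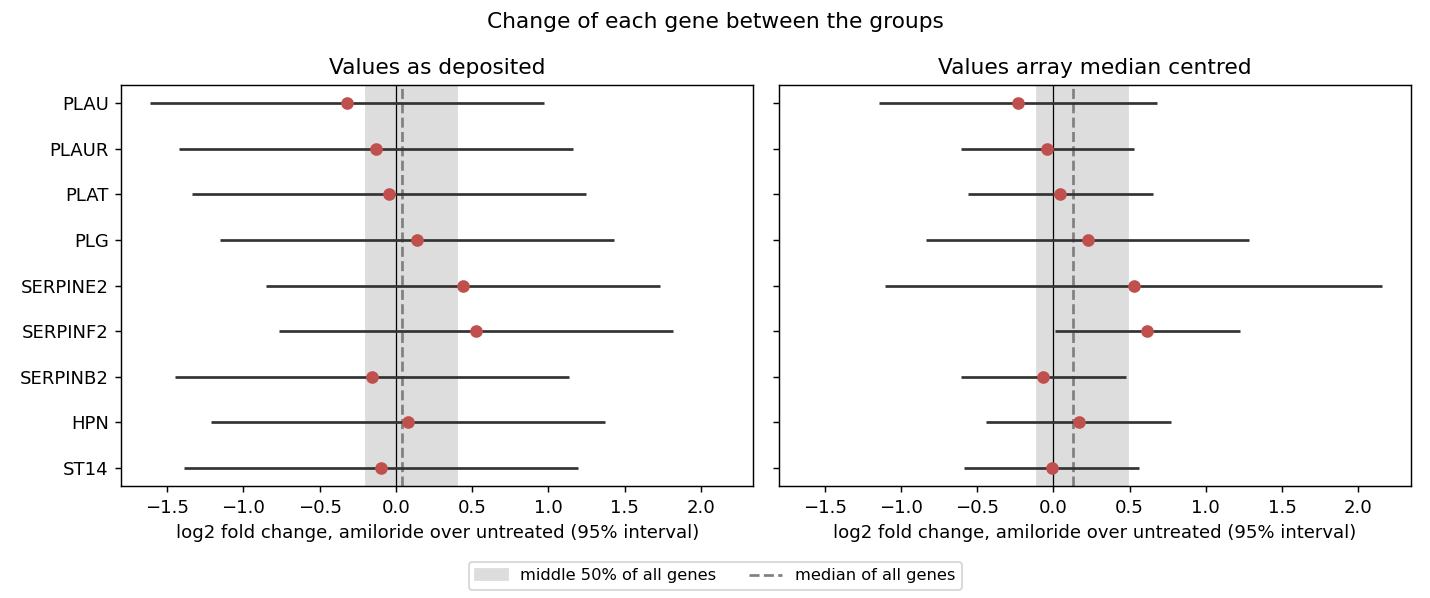
log2 fold change (amiloride over untreated, horizontal axis) of each gene with its 95% interval from limma, as deposited on the left and after centring on the right; the grey band holds the middle 50% of all genes and the dashed line is their median. Only the centred interval of SERPINF2 left out 0, with its lower bound at 0.01.

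The study asked whether amiloride changed the splicing of transcripts, and on an exon array each probe set can be set against its gene as a whole. A splicing index was taken for this, the difference on the log2 scale between a probe set and its gene level on that array. Of the 137 probe sets of the 9 genes that passed the filter, 0 passed the test of the probe set (adjusted p = 1 for each named below) and 0 that of the splicing index (limma, adjusted p = 0.951). Across the array, 0.00653% of probe sets were called higher and 0.0132% lower, and 0% of splicing indices in either direction. At an unadjusted p under 0.05, 0 probe sets of the 9 genes were higher and 1 lower, against 0.983% and 0.652% of all, and without overlap 1 was higher (3830096 of HPN, log2 fold change 0.46) and 0 lower, against 3.18% and 0.563%. Of the splicing indices 65 lay above 0 and 72 below, against 48.3% and 51.7% of all. At that unadjusted p 0 were higher and 2 lower, against 1.9% and 2.6% of all. Without overlap between the groups 2 were higher and 6 lower, against 4.99% and 5.8% of all. The counts of these genes are near those shares.

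The lowest splicing index belonged to SERPINE2. Its probe set 2601463 had an intensity of 38.6, 27.7 and 36.2 in amiloride and of 144, 361 and 34.5 in untreated cells. Untreated replicates 1 and 2 were far above the amiloride arrays, and untreated replicate 3 lay among them. The splicing index was 0.22, -0.84 and -1.08 in amiloride and 2.74, 3.18 and -0.76 in untreated cells, a difference of -2.29 (standard error 0.98, unadjusted p = 0.0493 from limma across 271399 splicing indices). The probe set itself had a log2 fold change of -1.85 (standard error 0.86, unadjusted p = 0.032 from limma across all probe sets, adjusted p = 1), while 12 of the other 13 SERPINE2 probe sets past the filter lay above 0.

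This was the only probe set of the 9 genes that met the 3 criteria of the study, with the limits it set on its exon arrays. The study counted exons after its own processing. Here single probe sets were set against the gene's median, so a call is not the study's own. The criteria ask for a splicing index no higher than -1.585 and the same of the log2 ratio. They also ask for a correlation between the gene's mean profiles of 0.7 or more (here 0.94). Of all probe sets of measured genes 0.394% met them, and 0.222% with the signs turned, of which 0 were of these genes. Likewise 1 gene of 9 had such a probe set, against 6.96% of all genes. Without untreated replicate 2 no probe set of the 9 genes met the criteria, nor with 16 added to every intensity. Without untreated replicate 1 probe set 2601463 still met them, with a splicing index of -1.78. The next lowest among those outside the criteria was probe set 3830066 of HPN, a dim one, where the index was -1.34 and the ratio -1.26.

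**Figure D4:**
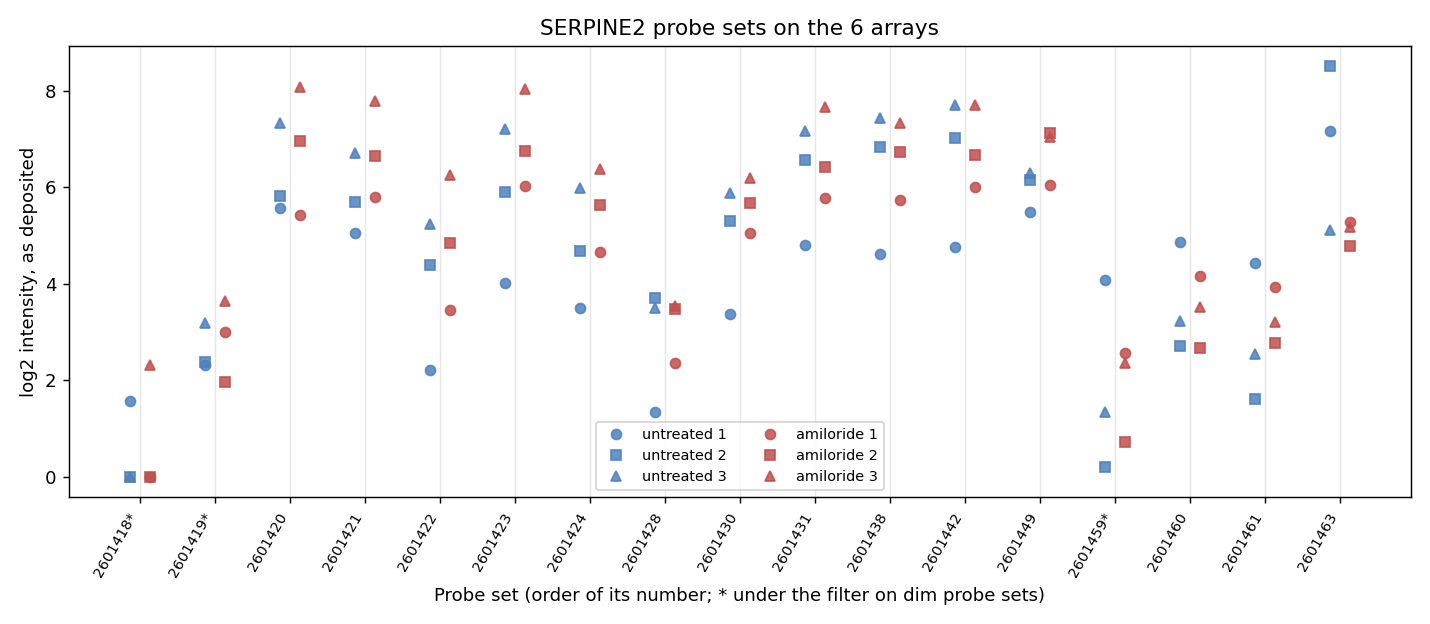
log2 intensity as deposited (vertical axis) of the 17 SERPINE2 probe sets (horizontal axis, by number), red for amiloride and blue for untreated arrays, symbols by replicate. At probe set 2601463 untreated replicates 1 and 2 stood above the rest and untreated replicate 3 lay beside the amiloride arrays, while most other probe sets were lowest on untreated replicate 1.

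In SERPINF2, probe set 3705948 had the other splicing index under that unadjusted threshold. It was -2.14, -2.09 and -1.79 in amiloride and -0.88, -1.69 and -0.77 in untreated cells, without overlap (difference -0.89, standard error 0.34, unadjusted p = 0.033 from limma). Its own log2 value changed by -0.37, against 0.53 for the gene, so the gene level contributed more to the index than the probe set did. Probe set 3705952 had the same form, with a splicing index of 0.34, 1.15 and 0.79 in amiloride and 1.44, 1.39 and 1.41 in untreated cells.

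In PLAU, probe set 3252043 had a splicing index of 1.63, 1.98 and 2.19 in amiloride and of 1.47, 1.34 and 1.26 in untreated cells, higher without overlap (0.58, standard error 0.29). Probe set 3252042 of the same gene had the PLAU log2 fold change farthest from 0, at -0.95, and read 7.89 on untreated replicate 1 against 4.64 to 5.66 on the other 5 arrays. In ST14, probe set 3356196 stood at 3.89, 2.38 and 2.3 in amiloride and at 3.98, 4.85 and 2.84 in untreated cells (log2 fold change -1.03), where untreated replicate 2 was high. Probe set 3356176 had the ST14 splicing index with the smallest p, at -0.79 (standard error 0.42), with an overlap between the groups.

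In HPN, probe set 3830086 had a splicing index of -1.34, -0.82 and -0.89 in amiloride and 0.39, -0.65 and -0.75 in untreated cells, lower without overlap, although the untreated values were set by replicate 1. In PLG, probe set 2934712 was lower by 0.89 in its splicing index (standard error 0.51), with 7.14 on untreated replicate 3 against 4.6 to 5.69 on the other 5 arrays. In PLAUR the smallest p belonged to probe set 3864559, with a splicing index of 0.46, and to probe set 3864566, with a log2 fold change of -0.68. In PLAT these were 3133241 (splicing index 0.4) and 3133236 (log2 fold change -0.46), and in SERPINB2 3791938 (0.41) and 3791942 (-0.42). In each of these last 6 the groups overlapped.

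By start and end position, PLAU, PLAUR, SERPINE2, SERPINB2 and HPN overlap other annotated genes, among them C10orf55 for PLAU and HPN-AS1 for HPN. Strand was not compared, so whether a probe set there could read the other RNA was not examined. Whether a probe set lies in an exon, an intron or an untranslated region was not examined.

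Around the 9 genes, 48 further genes of the pathway were set out in 4 lists, of which 47 were measured. In the test across all genes 0 passed in either direction (limma, adjusted p = 1 for each), and 0 had an unadjusted p under 0.05. As deposited, 2 were higher without overlap between the groups and 0 lower, against 6.26% and 0.503% of all genes, and the median log2 fold change of the 47 was 0.07. After centring, 7 were higher without overlap, against 16.5% of all genes, and 2 were higher at an unadjusted p under 0.05, against 13.3%. Neither count is above what all genes gave.

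Of the 8 other regulators of plasminogen activation, 7 lay above 0, with a median of 0.23. SERPINA5, the protein C inhibitor, which also traps urokinase, stood at 7.36, 5.89 and 6.75 in amiloride and at 5.73, 5.76 and 5.67 in untreated cells. All 3 amiloride arrays lay above the untreated ones (log2 fold change 0.94, standard error 0.66), and after centring the value was 1.03 (standard error 0.36, unadjusted p = 0.019 and adjusted p = 0.254 from limma across all genes). HRG, histidine-rich glycoprotein, which binds plasminogen, had 0.68, and A2M, the broad protease trap alpha-2-macroglobulin, had 0.4. After centring both were higher without overlap. The centred value was 0.77 for HRG (unadjusted p = 0.0353 and adjusted p = 0.305 from limma) and 0.49 for A2M (adjusted p = 0.458 from limma). Without amiloride replicate 1 the deposited values were 0.6 for SERPINA5, 0.23 for HRG and -0.15 for A2M.

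Of the 13 genes whose products bind plasminogen or urokinase, 8 lay above 0, with a median of 0.3. ANXA2, annexin A2, a surface binding partner of plasminogen and tissue activator, had 0.62, with 8.62, 7.56 and 8.62 in amiloride and 7.46, 7.99 and 7.48 in untreated cells. VTN, vitronectin, a matrix ligand of the urokinase receptor, had 0.55, and IGF2R, a receptor that also binds the urokinase receptor, had -0.55. The groups of ANXA2, VTN and IGF2R overlapped as deposited. After centring those of VTN lay apart (0.64, adjusted p = 0.387 from limma), and those of ANXA2 and IGF2R overlapped. Single arrays moved the deposited values. These ran from 0.44 to 0.97 for ANXA2 and from 0.25 to 0.81 for VTN when each array was left out. For IGF2R they ran from -1.32 to -0.06.

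Of the 14 substrates of plasmin, hepsin and matriptase and their receptors, 6 lay above 0, with a median of -0.16. The fibrinogen chains were the highest, FGG at 1.12 (7.75, 6.96 and 7.58 in amiloride, 5.13, 7.34 and 6.44 in untreated cells) and FGB at 0.62. FGA, the remaining chain, had 0.43, with 9.4, 9.04 and 9.06 in amiloride against 8.89, 8.84 and 8.48 in untreated cells. Its groups lay apart as deposited and overlapped after centring. FGG was lowest on untreated replicate 1, and after centring and without that array its value was 0.23. FGB was 0.15 as deposited without amiloride replicate 1. HGF, hepatocyte growth factor, had -0.59 at a low level of 1.11 to 2.91, and -0.18 without untreated replicate 1. Of the 12 measured genes listed as membrane serine proteases and their Kunitz inhibitors, 4 lay above 0, with a median of -0.08. The lowest value was -0.3 (TMPRSS15, enteropeptidase), and PRSS21, testisin, had -0.28. The highest was 0.37 (PRSS22, a tryptase-like protease), which was -0.076 over the probe sets that passed the filter.

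**Figure D5:**
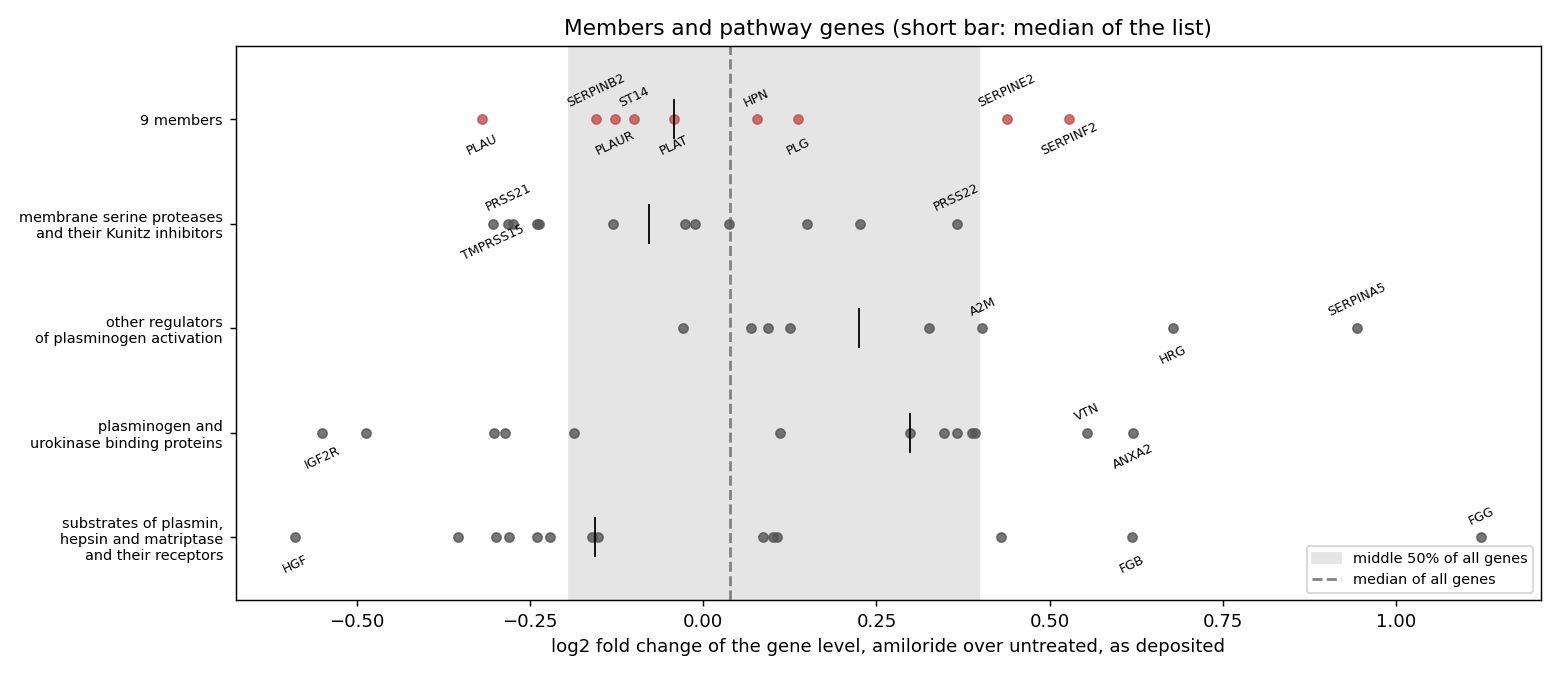
log2 fold change of the gene level as deposited (amiloride over untreated, horizontal axis) for the 9 genes and for 4 lists of pathway genes; each point is a gene, the short bar the median of its list, the grey band the middle 50% of all genes and the dashed line their median. FGG at 1.12 and SERPINA5 at 0.94 lay farthest to the right and HGF at -0.59 farthest to the left.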

How the data were processed

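Per the labels, RNA of 3 amiloride-treated and 3 un-treated Huh-7 cultures was read on 1-colour Affymetrix human exon arrays. Using background probes, the authors corrected systematic bias, then normalized and summarised in dChip. They deposited a linear intensity for each probe set, on build hg18. All 6 columns were used as deposited, although array medians differed. Values up to 1, the floor set before taking log2, made up 2.52% to 5.94% of each array.

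Of all probe sets, 357582 carried 1 gene symbol and were used for genes, and older symbols were replaced by current ones of RefSeq. Gene levels are medians over a gene's probe sets, of which at least 3 were required. Probe sets and splicing indices were tested from a mean log2 value of 2.8 upward. The tests used limma 3.58.1 in R 4.3.3 on all genes or probe sets, with both directions tested, adjusted after Benjamini-Hochberg with calls under 0.05. They were also run on simulated data with known changes, and no result of that run is used here. P-values measure the spread between cultures of 1 line. For gene levels as deposited this spread was pooled over all genes and includes array brightness. limma estimated infinite prior degrees of freedom for gene levels as deposited, and 5.22 after centring.

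To see whether replicate numbers pair the arrays, deviations of gene levels from their group means were correlated. Same-numbered arrays correlated at 0.163, 0.097 and 0.188. As 1 value is under 0.1, the numbers were not treated as pairs. A correlation over genes cannot see a shift of a whole array, and array brightness followed the replicate number in both groups. This check therefore does not settle whether the arrays are paired.

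The genes and lists were chosen with earlier results of these data known. All 9 genes were named, with the probe set of smallest p in each test and any past the criteria, and of each list the 3 genes of smallest p. FGA was named besides, as the remaining fibrinogen chain. Alternatives were median centring, quantile normalization, a filter on dim probe sets, an offset of 16, means over probe sets, a replicate block and leaving out each array. Chosen after the data were seen were centring with each array left out and the shared PLG probe sets.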

Additional observations from a re-analysis of the deposited data

How the results depend on the processing

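No gene of the 9 passed the threshold under any of the 20 alternatives, the smallest adjusted p being 0.277, for SERPINF2 with a replicate block and median centring. SERPINF2 alone never changed sign, and 35 of 172 values of the 9 genes differed in sign from the deposited one. None of these passed the threshold in either setting. PLAT was 0.047 after median centring, with or without the block, and 0.034 after quantile normalization. SERPINB2 was 0.12 over kept probe sets and PRSS22 -0.076, and with means HPN was -0.11 and PRSS22 -0.18. The replicate block left the count of called genes among the 9 at 0 and moved that over all genes from 6 to 0 (3 with centring). With it SERPINF2 was 0.53 (adjusted p = 0.383 from limma), and each amiloride array correlated best with the untreated array of its own number. With each array left out of the deposited values, log2 fold changes ran from -1.02 to 0.47 for PLAU, -0.56 to 0.34 for PLAUR, -0.54 to 0.47 for PLAT, -0.044 to 0.301 for PLG, 0.05 to 0.77 for SERPINE2, -0.51 to 0.19 for SERPINB2, -0.42 to 0.64 for HPN, -0.47 to 0.34 for ST14, -0.147 to 0.86 for A2M, -0.0053 to 0.794 for PRSS22, -0.54 to 0.042 for TMPRSS15 and -0.762 to 0.31 for PRSS21, while the median of all genes ran from -0.37 to 0.44. For probe sets they ran from -1.32 to 0.33 (PLAUR 3864566), -1.34 to 0.401 (PLAT 3133236), -1.09 to 0.12 (SERPINB2 3791942) and -1.25 to 0.317 (HPN 3830086). With centring and each array left out, PLAT ran from -0.17 (without untreated replicate 2) through -0.02 (without amiloride replicate 2) to 0.073, 0.088, 0.14 and 0.16 without the others. Against the centred value, the sign turned without untreated replicate 1 in PLAU (0.16), PLAUR (0.031), PLG (-0.35), SERPINE2 (-0.26), ST14 (0.028) and PRSS21 (3e-04), without untreated replicate 2 in HPN (-0.045), and without untreated replicate 3 in PLAUR (0.042) and ST14 (0.0031). It also turned without amiloride replicate 1 in TMPRSS15 (0.025), without amiloride replicate 2 in PLAUR (0.014), and without amiloride replicate 3 in ST14 (0.13). The count of probe sets past the criteria, 1 as deposited, was 0 with the offset of 16 and ran from 0 (without untreated replicate 2) to 3 (without amiloride replicate 2), with 2 without untreated replicate 3. The cause was not tested.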
